A study of Mus musculus with 4 samples.

Results

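The 8 genes described here, Pparg, Ppard, Nr1h2, Nr1h3, Rxra, Abca1, Abcg1 and Mylip, encode nuclear receptors that sense lipids and proteins that their LXR branch switches on. All deposited ATAC-seq peaks that overlapped a gene body or the 10 kb on each side of it (GRCm38, GENCODE M21) were taken, which gave 139 and 147 peaks in the 2 WT libraries and 142 and 140 in the 2 IRF8KO libraries. Strict peaks, those with a −log10 q of 2 or more, were merged across the 4 libraries into regions, and the 8 windows held 152 of the 155546 regions of the genome. A further 78 of the 229 regions that all deposited peaks form in these windows had no strict peak, and 67 of these 78 were listed in 1 library only; they are not described further. ATAC-seq marks open chromatin by the places where the Tn5 transposase can insert. The libraries came from microglia, the resident macrophages of the brain, sorted by flow cytometry from brain tissue of untreated C57BL/6 mice aged 3 months, either WT or IRF8KO, a genotype named for the transcription factor IRF8 that the labels do not describe further. Every group shared strain, age and treatment. The labels number the libraries 1 and 2 in each genotype without saying that they came from separate animals, so that p-values measure only the spread between these libraries.

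Liver X receptors (Nr1h3 encodes LXRα and Nr1h2 LXRβ) bind oxidised cholesterol, pair with the retinoid X receptor encoded by Rxra, and sit on direct repeats of the hexamer AGGTCA with a 4-base spacer (DR4). Their classical targets in macrophages are Abca1 and Abcg1, pumps that pass cholesterol out to lipoprotein particles, and Mylip, a ubiquitin ligase that sends the LDL receptor to degradation. Peroxisome proliferator-activated receptors (Pparg and Ppard) bind fatty acids and their derivatives, pair with the same partner and prefer a 1-base spacer (DR1). In microglia this system handles the cholesterol of engulfed myelin and cell debris. IRF8 binds DNA mainly together with PU.1, on a composite of an ETS and an IRF word.

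The libraries held between 46948938 and 78793572 tags per the file headers, and the IRF8KO libraries were 1.51 times as deep as the WT libraries. Tag size was 50 bp in WT and 49 bp in IRF8KO, so that depth and tag size cannot be told apart from genotype. Pileup, the number of extended cut sites over a summit, is given throughout as the highest value in a region per 1000000 tags. On this scale the median of the 58550 regions called in all 4 libraries was 0.767 and 0.614 (WT) and 0.444 and 0.695 (IRF8KO), which put the median log2 difference of all of them at -0.31. Differences of the 8 genes are therefore given mostly also after every library was divided by its own median ("median-scaled"). Promoters of all 7 microglial marker genes were open in both WT libraries and of 6 of 7 in both IRF8KO libraries, Sall1 being the exception; their summed promoter pileups were 22.3 and 15.7 against 8.71 and 14.1 per 1000000 tags. Of 5 border macrophage markers, 2 had an open promoter in each WT library and 4 in each IRF8KO library, with summed pileups of 0.788 and 0.614 against 2.94 and 4.82 per 1000000 tags; Lyve1 had none in any library. The 3 monocyte markers had no promoter peak in any library. Of 4 B or T cell markers, 2 had an open promoter in each WT library and 1 in each IRF8KO library, with summed pileups of 1.11 and 1.31 against 3.44 and 3.44, and Cd3e and Ms4a1 had none in any library. Markers of neutrophils, astrocytes, oligodendrocytes, neurons and endothelial cells had at least 1 open promoter per list in every library, with sums from 0.178 to 3.64. The part of these cell types in the differences below was not tested, and in sorted bulk cells a change in the share of a cell type and a change within each cell cannot be told apart. At Irf8 itself the promoter read 2.07 and 1.49 (WT) against 0.863 and 1.36 (IRF8KO); the labels do not say what was deleted, so this checks nothing.

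The reference sequences of 8 regions that stood higher in 1 genotype (GRCm38, plus strand, 201 bp centred on the summit of the library with the highest pileup, from the RefSeq copy of the assembly) are shown first. These regions were chosen after their values and words were seen: the genotype-specific ones shown are those with an ETS-IRF word (2 of 6 WT-specific) or an AP-1 word (3 of 8 IRF8KO-specific), so that the shared word is part of the choice. Capitals mark exact matches on either strand to GGAANNGAAA (ETS-IRF), TGACTCA (AP-1), GAGGAAG (PU.1), GAAANNGAAA (ISRE) or TTGCNNAA (CEBP), and matches with up to 2 mismatches in the 12 hexamer bases to AGGTCANAGGTCA (DR1) or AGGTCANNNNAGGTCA (DR4). A match describes the letters and no binding was measured. The first pair are the shared regions that fell in IRF8KO in the introns of Abca1, with an ETS-IRF word, and of Abcg1, with a DR4 word.
Abca1 intron, fell (chr4:53133572-53133772): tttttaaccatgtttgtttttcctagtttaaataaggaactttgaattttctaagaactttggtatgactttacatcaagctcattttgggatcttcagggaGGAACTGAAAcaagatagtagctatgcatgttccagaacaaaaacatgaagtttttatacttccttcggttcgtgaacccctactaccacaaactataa
Abcg1 intron, fell (chr17:31075603-31075803): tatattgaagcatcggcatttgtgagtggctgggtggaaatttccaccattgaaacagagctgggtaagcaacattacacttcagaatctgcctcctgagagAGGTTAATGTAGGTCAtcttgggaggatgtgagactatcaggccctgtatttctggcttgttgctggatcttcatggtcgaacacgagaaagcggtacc
The next pair were open in WT only and hold an ETS-IRF word each, upstream of Abcg1 and at an alternative start site of Ppard.
Abcg1 upstream, WT-specific (chr17:31047748-31047948): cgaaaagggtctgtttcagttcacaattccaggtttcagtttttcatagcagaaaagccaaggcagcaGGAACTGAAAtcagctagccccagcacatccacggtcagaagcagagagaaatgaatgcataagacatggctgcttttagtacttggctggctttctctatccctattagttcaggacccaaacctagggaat
Ppard alternative start, WT-specific (chr17:28293457-28293657): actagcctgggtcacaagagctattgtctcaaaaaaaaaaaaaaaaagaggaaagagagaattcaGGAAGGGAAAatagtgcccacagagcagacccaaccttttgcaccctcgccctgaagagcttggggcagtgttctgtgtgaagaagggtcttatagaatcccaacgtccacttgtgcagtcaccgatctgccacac
The last 4 were higher or open only in IRF8KO. The Ppard intron region that rose has none of the words, and the other 3 share an AP-1 word.
Ppard intron, rose (chr17:28259954-28260154): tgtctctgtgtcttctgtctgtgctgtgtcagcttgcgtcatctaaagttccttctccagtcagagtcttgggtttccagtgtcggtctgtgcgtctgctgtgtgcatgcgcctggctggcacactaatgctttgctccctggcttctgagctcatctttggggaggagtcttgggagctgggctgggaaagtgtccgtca
Mylip intron, IRF8KO-specific (chr13:45398004-45398204): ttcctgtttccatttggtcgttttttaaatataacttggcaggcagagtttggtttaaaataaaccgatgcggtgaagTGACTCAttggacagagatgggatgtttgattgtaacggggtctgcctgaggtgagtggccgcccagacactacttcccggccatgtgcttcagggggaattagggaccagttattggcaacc
Ppard intron, IRF8KO-specific (chr17:28280490-28280690): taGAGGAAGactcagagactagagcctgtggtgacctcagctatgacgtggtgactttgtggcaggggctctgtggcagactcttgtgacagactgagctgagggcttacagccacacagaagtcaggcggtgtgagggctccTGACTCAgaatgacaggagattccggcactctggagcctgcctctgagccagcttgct
Pparg coding exon, IRF8KO-specific (chr6:115463092-115463292): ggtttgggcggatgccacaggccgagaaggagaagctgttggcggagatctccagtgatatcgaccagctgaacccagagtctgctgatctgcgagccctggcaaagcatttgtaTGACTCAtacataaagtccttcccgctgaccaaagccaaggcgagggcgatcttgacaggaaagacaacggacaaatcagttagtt

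The number of strict peaks over the 8 genes did not separate the genotypes. There were 109 and 102 in WT and 107 and 107 in IRF8KO, a difference of 1.5 between the means of 105.5 ± 4.95 and 107.0 ± 0.0 (SD, n = 2; two-sided exact permutation p = 1.0, where 2 libraries against 2 cannot go below 0.33). The length these peaks covered was 30478 and 26856 bp in WT against 30858 and 33355 bp in IRF8KO, and the deposited summits numbered 204 and 190 against 210 and 216; in both, the IRF8KO libraries were the higher, at the smallest possible exact permutation p of 0.33. Rxra had the most regions, 33, followed by Abca1 with 29, Ppard with 25, Abcg1 with 21, Mylip with 19, Pparg with 11, Nr1h3 with 9 and Nr1h2 with 5. Of the 152 regions 98 lay in introns and 21 within 1 kb of an annotated start site of the gene. All 4 libraries had a peak in 84 of the 152.

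A region was called WT-specific where both WT libraries had a strict peak and neither IRF8KO library any deposited peak, and IRF8KO-specific in the converse case. The windows held 6 WT-specific regions (3.95%, against 5.58% of all regions) and 8 IRF8KO-specific regions (5.26%, against 3.86%). The WT-specific regions were 3 at Abcg1, 2 at Ppard and 1 at Pparg. Of the IRF8KO-specific regions 3 were at Mylip, 2 at Abca1 and 1 each at Pparg, Ppard and Rxra. Neither LXR gene had a region of either kind. With the pileup minimum of 0.5 per 1000000 tags, 2 WT-specific and 5 IRF8KO-specific regions were left (3.85% and 1.56% of all regions under the same minimum). An expected height was taken from the unscaled pileup per tag of the genotype that listed each region. It exceeded the pileup needed for listing in both opposite libraries for all 6 WT-specific and 7 of the 8 IRF8KO-specific regions. The exception was a Mylip region, with an expected pileup of 20.7 against 21 needed in WT replicate 1. The background was that of the nearest listed summit, up to 7979 bp away. This calculation was added after the data were seen. It uses regions chosen for being listed in that genotype, so it does not decide whether depth had a part, which was not tested.

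**Figure D1:**
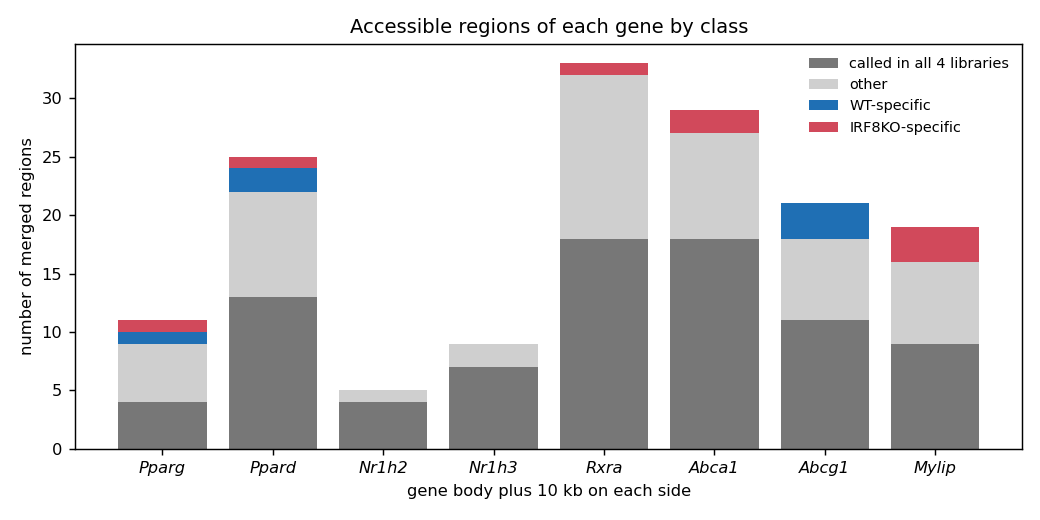
Number of merged accessible regions (vertical axis) in the window of each gene (horizontal axis), stacked by class; other regions were listed in 1 to 3 libraries without meeting either definition. WT-specific regions (6) stood at Abcg1, Ppard and Pparg, and IRF8KO-specific regions (8) were most numerous at Mylip (3).

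Among the 84 regions called in all 4 libraries, limma (fitted on all 58550 such regions, Benjamini-Hochberg adjustment, threshold 0.05) called 3 lower and 2 higher in IRF8KO. That is 3.57% lower against 6.82% of all regions, and 2.38% higher against 2.81%. Median-scaled, 6 were lower (7.14%, against 12.5%) and 15 higher (17.9%, against 13.3%). The median log2 difference of the 84 was -0.26, beside -0.31 over all regions, and 0.04 median-scaled. On the authors' fold enrichment 3 were lower (against 3.51%) and 0 higher (against 2.43%). All 5 unscaled calls lay outside promoters. The 17 promoter regions tested gave no limma call. Of all 20025 promoter regions 3.5% were lower and 0.994% higher, so a count of 0 among 17 is near the genome-wide share. None of the 17 had an unadjusted limma p under 0.05, beside 2292 of the 20025. Median-scaled, 1 of the 17 was called, higher, beside 8.26% lower and 7.44% higher of all promoter regions.

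**Figure D2:**
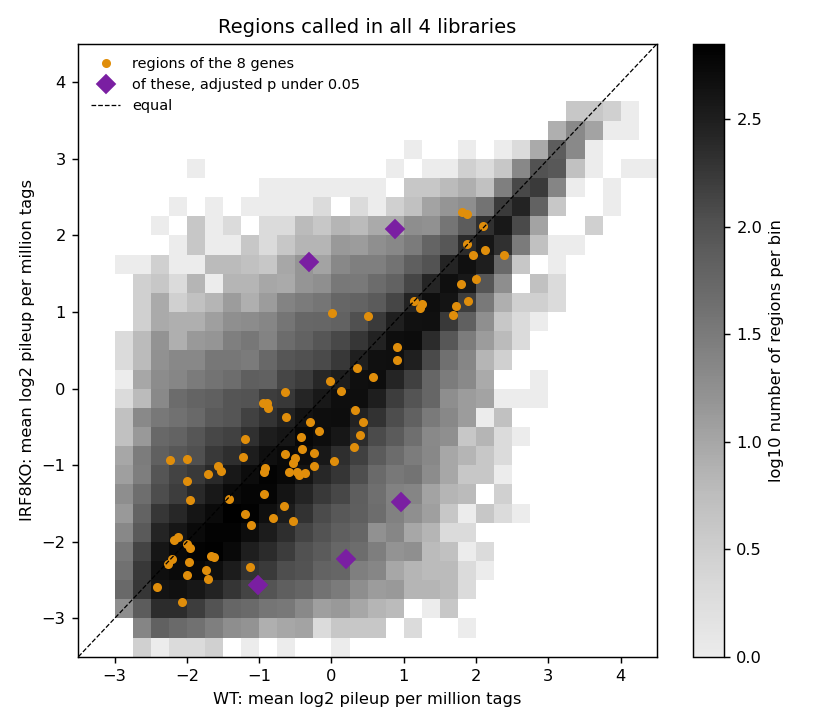
Mean log2 pileup per 1000000 tags in WT (horizontal) and IRF8KO (vertical) for the 84 regions of the 8 genes called in all 4 libraries (orange, and violet diamonds for the 5 called by limma) over the density of all 58550 such regions (grey bins). Most orange points lie with the bulk of the genome, just under the dashed line of equal values, and the 5 called regions stand off it, 3 below and 2 above.

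None of the 4 Nr1h2 and 7 Nr1h3 regions tested passed on either scale. Of all shared regions 6.82% were lower and 2.81% higher, and median-scaled 12.5% and 13.3%. Unscaled, a count of 0 among so few is near the genome-wide share. The promoter of Nr1h2 read 3.49 and 3.11 per 1000000 tags in WT and 1.64 and 2.73 in IRF8KO, a log2 difference of -0.64 (SE 0.41, limma adjusted p = 0.413; median-scaled -0.34). Both IRF8KO values lay below both WT values. Its window's highest region, 4.58 and 4.13 against 2.79 and 4.45, lies at the start of the neighbouring gene Pold1, which encodes a DNA polymerase subunit. The promoter of Nr1h3, shared with the start sites of Acp2 and Gm13783, read 1.02 and 0.777 in WT and 0.66 and 0.71 in IRF8KO (log2 difference -0.38, SE 0.50, limma adjusted p = 0.734; median-scaled -0.08). Nr1h3's highest region by mean pileup over the 4 libraries, 3.65 kb upstream, was at 4.54 and 2.99 against 3.11 and 4.42, and there the genotypes overlapped. The tested Nr1h3 regions include some of other genes. Those 18.9 to 19.9 kb from its 5′ end lie at the start of Madd, and its highest region lies inside Acp2.

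Rxra, the shared partner, was most open at an alternative start site 64.0 kb into the gene. That region read 5.47 and 4.99 per 1000000 tags in WT and 3.03 and 3.68 in IRF8KO (log2 difference -0.64, SE 0.39, limma adjusted p = 0.375; median-scaled -0.34), and the genotypes did not overlap. Of its 18 tested regions none passed, beside 6.82% lower and 2.81% higher of all shared regions. When median-scaled, 4 were called higher, beside 13.3% of all shared regions, and on fold enrichment 0, beside 2.43%. An intron region 38.0 kb in was IRF8KO-specific at 1.07 and 1.21, the highest pileup of the 14 genotype-specific regions, with −log10 q of 45.7 and 50.1. It holds none of the words searched.

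At Pparg none of 4 tested regions passed before scaling, and 1 region was specific to each genotype. An intron region 40.5 kb from the nearest start site was lower when median-scaled (-0.89), beside 12.5% lower of all shared regions. It did not pass on fold enrichment (-0.67, limma adjusted p = 0.367). The main Pparg promoter read 0.895 and 0.798 in WT and 0.457 and 0.544 in IRF8KO (log2 difference -0.76, SE 0.52, limma adjusted p = 0.442; median-scaled -0.46); it is also the gene's highest region, and the genotypes did not overlap. Among the 8 main promoters this was the largest unscaled difference, and it did not pass; secondary promoter regions of Nr1h2 (-0.99, limma adjusted p = 0.251; median-scaled -0.68) and Ppard (-0.87, adjusted p = 0.302; median-scaled -0.56) differed by more and did not pass either. Strict peaks at Pparg numbered 8 and 10 in WT against 5 and 6 in IRF8KO (exact permutation p = 0.33, the smallest possible). An intron region of Pparg was WT-specific at 0.277 and 0.389, and the coding-exon region with the AP-1 word was IRF8KO-specific at 0.33 and 0.453.

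Ppard held the larger of the 2 rises that passed on pileup. Its intron region at chr17:28259855-28260407, 27.4 kb into the gene, read 1.0 and 0.654 in WT and 3.20 and 3.08 in IRF8KO. Both knockout libraries stood far above both WT libraries, 3.88-fold by the fitted means (log2 difference 1.96, SE 0.44, limma adjusted p = 0.000413; median-scaled 2.26). On the authors' fold enrichment, which divides by the local background, the values were 8.86 and 6.65 in WT and 15.7 and 14.5 in IRF8KO, and the call was lost at adjusted p = 0.0801. 2 neighbouring intron regions, 19 and 24.3 kb in, passed as higher when median-scaled (0.84 and 1.29) and did not on fold enrichment (0.42 and -0.02, adjusted p = 0.578 and 0.981). The main promoter did not differ beyond its spread, at 1.62 and 1.0 against 1.04 and 1.40 (log2 difference -0.08, SE 0.46, limma adjusted p = 0.949; median-scaled 0.23). Ppard's highest region by mean pileup over the 4 libraries, on a non-coding exon 62.0 kb in, read 5.07 and 3.15 against 2.60 and 2.79 (-0.57, adjusted p = 0.473; median-scaled -0.26). Genotype-specific regions stood in the distal part of the gene: 0.98 and 0.634 at the alternative start with the ETS-IRF word and 0.362 and 0.286 in the UTR, both in WT only, and 0.571 and 0.559 in IRF8KO only at the intron region with AP-1 and PU.1 words.

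**Figure D3:**
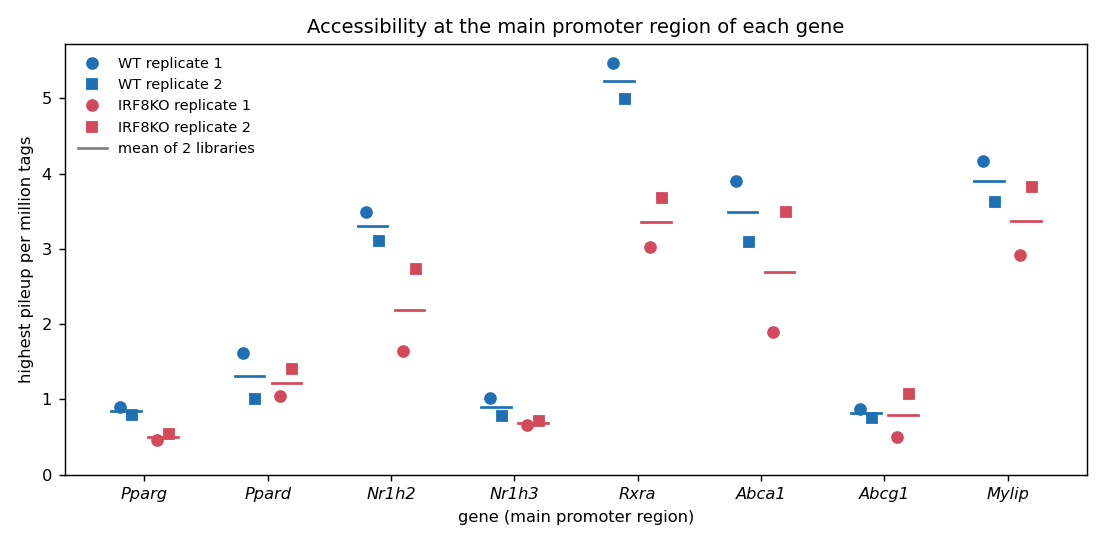
Highest pileup per 1000000 tags (vertical axis) at the main promoter region of each gene (horizontal axis); points are libraries and short lines the arithmetic mean of 2 libraries. The values ran from 0.457 at Pparg in IRF8KO replicate 1 to 5.47 at Rxra in WT replicate 1, on the unscaled measure, and no promoter shown passed the test.

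At Abca1 the promoter read 3.90 and 3.09 in WT and 1.90 and 3.49 in IRF8KO, overlapping (log2 difference -0.43, SE 0.41, limma adjusted p = 0.619; median-scaled -0.12). The gene's highest region by mean pileup over the 4 libraries, an intron region 37.9 kb in, was at 4.62 and 3.95 against 3.87 and 4.95. In IRF8KO other regions stood higher, such as the one 39.3 kb in, at 4.25 and 5.80 (WT 4.03 and 3.05). In the gene's introns single regions moved in opposite directions. The region at chr4:53133201-53133814, 26.2 kb in and carrying the ETS-IRF word 2 bases from its summit, read 1.34 and 0.982 in WT and 0.19 and 0.242 in IRF8KO. It fell 5.35-fold (log2 difference -2.42, SE 0.53, limma adjusted p = 0.000222; median-scaled -2.12; fold enrichment -1.71, adjusted p = 0.015). The region at chr4:53149636-53150092, 10 kb in, read 2.15 and 1.57 in WT and 3.24 and 5.57 in IRF8KO, and rose 2.31-fold (log2 difference 1.21, SE 0.41, limma adjusted p = 0.0387; median-scaled 1.51). Its call was lost on fold enrichment (0.62, adjusted p = 0.143) and without IRF8KO replicate 2, the higher of the 2 (0.81, adjusted p = 0.0956). An intron region at 0.711 and 1.03 and a coding-exon region at 0.292 and 0.438 were IRF8KO-specific; the first had −log10 q of only 2.85 and 5.11. When median-scaled, 5 further Abca1 regions were called higher and none lower, beside 13.3% higher of all shared regions; on fold enrichment none of the 5 passed (limma adjusted p from 0.0977 to 0.601).

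Abcg1 had 3 WT-specific regions and a shared region that fell about as far as the Abca1 region, with the order of this pair turning on fold enrichment. Its intron region at chr17:31075456-31075848, 18 kb into the gene, was the highest of its window in WT, at 2.28 and 1.68, and was at 0.343 and 0.378 in IRF8KO. It fell 5.44-fold (log2 difference -2.44, SE 0.49, limma adjusted p = 4.84e-05; median-scaled -2.14; fold enrichment -1.51, adjusted p = 0.025). The DR4 word shown above, AGGTTAATGTAGGTCA, begins 2 bases from its summit and has 1 mismatch, the fewest of the 11 DR4 matches in the 8 genes. The WT-specific regions of Abcg1 stood 9.83 kb upstream (0.341 and 0.45), 33.3 kb in (0.362 and 0.307) and downstream of the gene (0.916 and 0.552), and no region was IRF8KO-specific. The main promoter region, at an alternative start 52.7 kb in, read 0.873 and 0.757 against 0.508 and 1.07 and overlapped (-0.14, SE 0.50, limma adjusted p = 0.911; median-scaled 0.16). The region at the first start site was at 0.895 and 0.552 against 0.47 and 0.604 (-0.40, adjusted p = 0.731; median-scaled -0.10) and also overlapped. When median-scaled, 2 of 11 tested Abcg1 regions were called higher, 1 of them 1.19 kb into the gene (1.01). Besides the region above 1 was lower, 17.1 kb in (-0.69), at 1.96 and 0.879 in WT against 0.584 and 0.74. Of all shared regions 13.3% were higher and 12.5% lower on this scale. On fold enrichment neither higher region passed (limma adjusted p = 0.26 and 0.301), nor did the one 17.1 kb in (-0.12, adjusted p = 0.91).

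**Figure D4:**
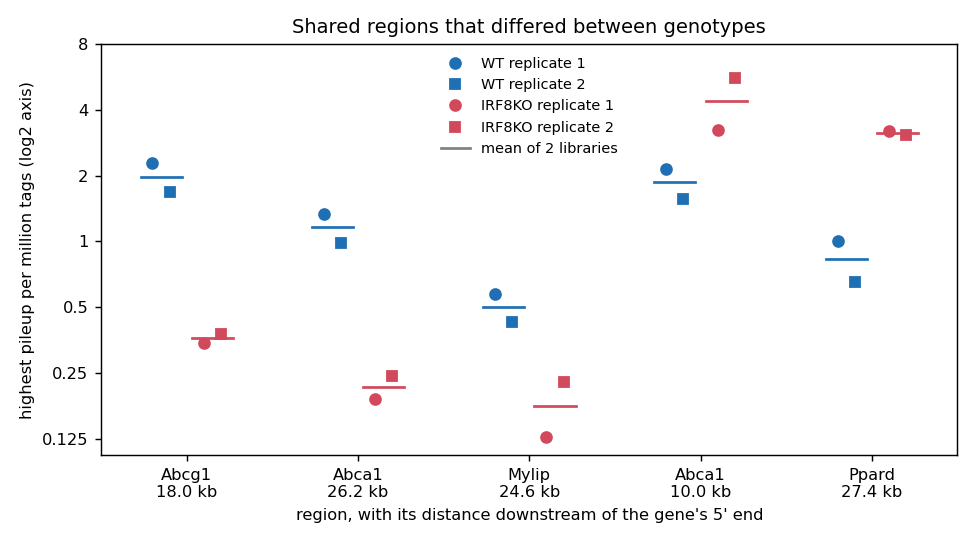
Highest pileup per 1000000 tags (vertical log2 axis) in each library at the 5 regions that limma called (horizontal axis, ordered by log2 difference, with the distance from the gene's 5′ end); short lines are the arithmetic mean of 2 libraries. The genotypes are apart in all 5, with IRF8KO lower at Abcg1, at Abca1 26.2 kb in and at Mylip and higher at Abca1 10 kb in and at Ppard.

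Mylip had the most IRF8KO-specific regions, and all 3 lay close together in the gene's introns, 6.36, 7.20 and 8.36 kb from its 5′ end. They read 0.647 and 0.695, 0.444 and 0.438, and 0.673 and 0.936 in the 2 IRF8KO libraries. The third holds the AP-1 word. Between them and the promoter, a shared intron region 4.92 kb in read 1.34 and 1.15 against 0.482 and 0.725; limma called it lower when median-scaled (-0.76, adjusted p = 0.0187) and on fold enrichment (-1.15, adjusted p = 0.0333), and did not on the unscaled values (-1.07, adjusted p = 0.178). The promoter, also the highest region, was at 4.17 and 3.62 in WT and 2.92 and 3.82 in IRF8KO and overlapped (log2 difference -0.22, SE 0.40, limma adjusted p = 0.813; median-scaled 0.09). Downstream of the gene, the region at chr13:45414180-45414394 fell 2.93-fold, from 0.575 and 0.429 to 0.127 and 0.227 (log2 difference -1.55, SE 0.50, limma adjusted p = 0.0267; median-scaled -1.25). It rested on pileups of 27 and 21 against 10 and 15, and its call was lost on fold enrichment (adjusted p = 0.104) and without IRF8KO replicate 1 (adjusted p = 0.124).

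Each of the 5 calls kept its direction and was lost when either WT library was left out, which leaves a single WT library that is assumed to vary like the others. For the Abcg1 region the log2 difference was then -2.22 (limma adjusted p = 0.421) without WT replicate 1 and -2.66 (0.145) without WT replicate 2. The Abca1 region that fell gave -2.19 (limma adjusted p = 0.399) and -2.65 (0.139), and the Ppard region 2.26 (0.208) and 1.65 (0.483). These 3 regions stayed called without either IRF8KO library, with limma adjusted p of 8.59e-07 and 4.53e-08 at Abcg1, 2.88e-05 and 3.04e-07 at Abca1 and 8.32e-05 and 1.83e-05 at Ppard. Without WT replicate 1 and without WT replicate 2, the log2 difference was 1.43 and 0.98 for the Abca1 region that rose. For the Mylip region it was -1.34 and -1.76.

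**Figure D5:**
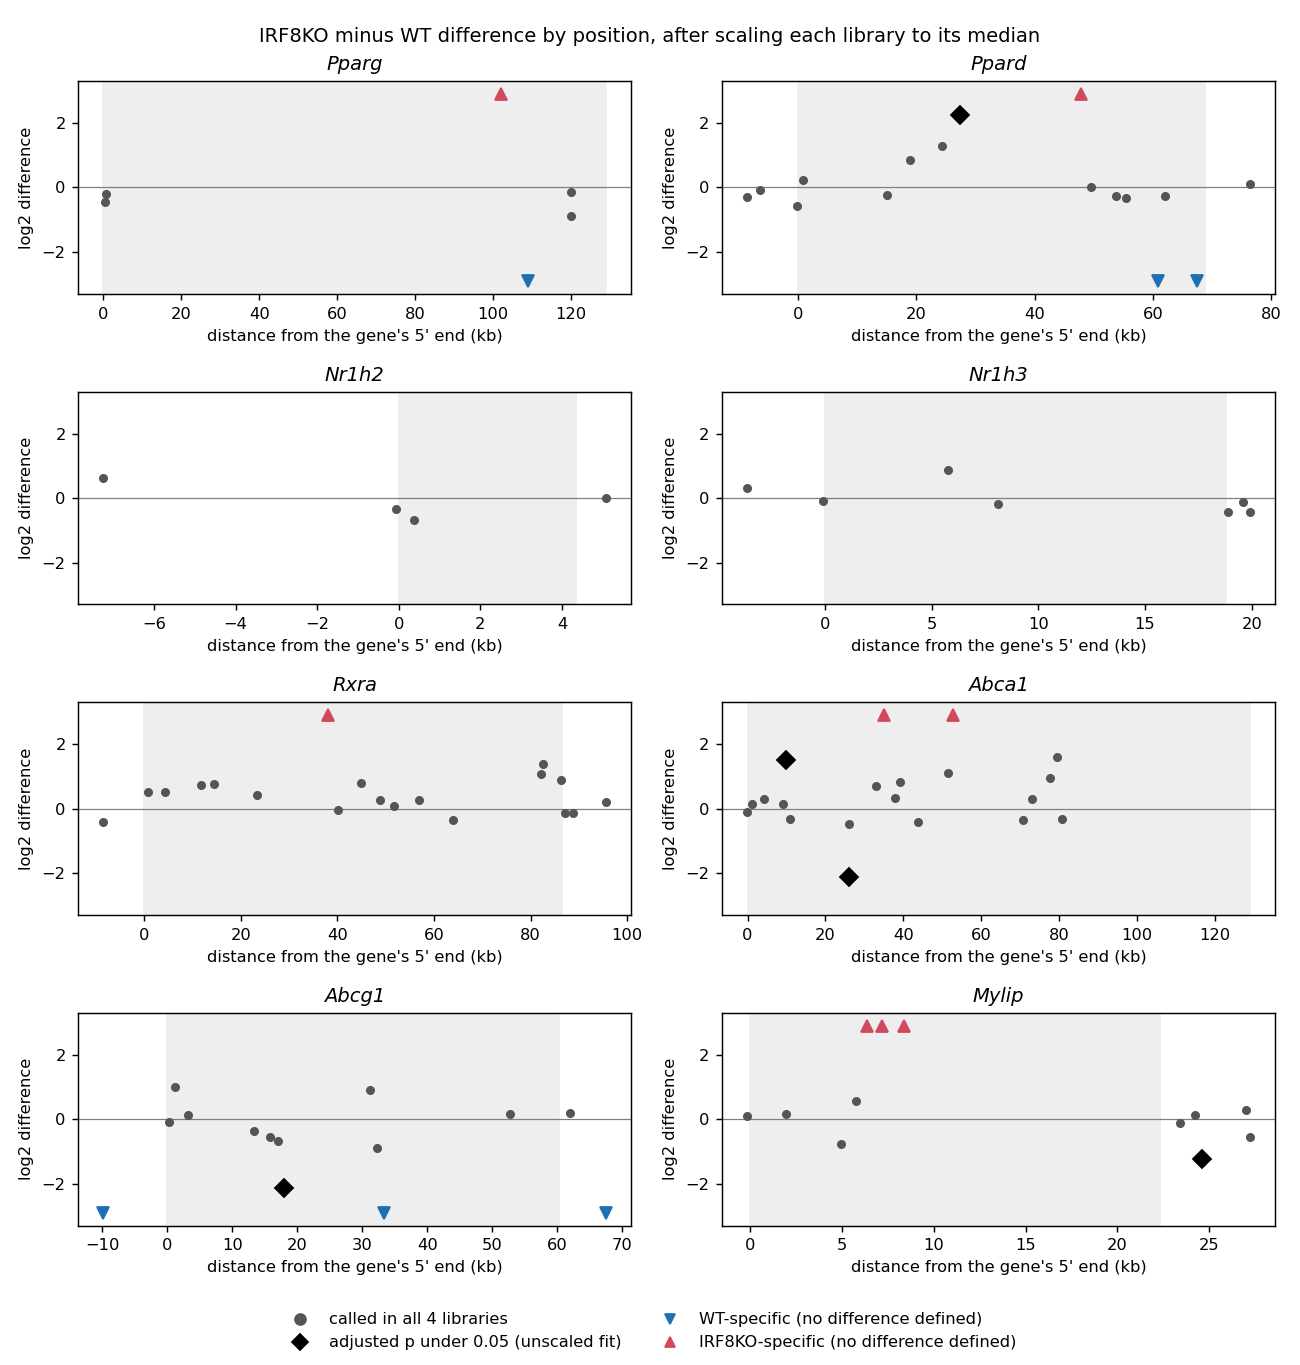
Median-scaled log2 difference, IRF8KO minus WT (vertical axis), of each region called in all 4 libraries by distance from the gene's 5′ end in kb (horizontal axis; grey, the gene body), with black diamonds for the 5 regions called before scaling and triangles, placed at the edges without a value, for genotype-specific regions. The lowest diamonds are at Abca1 (-2.12) and Abcg1 (-2.14) and the highest at Ppard (2.26), and close to the 5′ ends the points reach 1.01 at Abcg1 and -0.68 at Nr1h2.

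Over the 152 regions a DR4 match was present in 11 (7.24%, against 2.47% of all 155546 regions) and a DR1 match in 1 (0.658%, against 2.96%). By gene, Abcg1 had 5 of the DR4 matches, Abca1 3, and Pparg, Ppard and Rxra 1 each; some are within short distances of each other in the same gene and share its sequence context. None of the 14 genotype-specific regions had a DR4 match, which is near the genome-wide shares, 2.29% in the WT-specific class and 2.93% in the IRF8KO-specific class. Of the 6 tested regions with one, limma called the Abcg1 intron region alone before scaling. Median-scaled, 3 more of these 6 were called, all higher: Abca1 79.5 kb in (1.59) and 77.8 kb in (0.94) and Abcg1 1.19 kb in (1.01), beside 13.3% higher of all shared regions. None of these 3 passed on fold enrichment (limma adjusted p = 0.0977, 0.311 and 0.26). The hexamer AGGTCA alone, which DR1 and DR4 matches can contain, was present in 14 regions (9.21%, against 13.1%), PU.1 in 33 (21.7%, against 19.1%) and CEBP in 10 (6.58%, against 9.54%). None of the 8 IRF8KO-specific and 6 WT-specific regions had a CEBP word, beside 20.6% and 8.46% of these classes genome-wide. ETS-IRF words were found in 7 regions (4.61%, against 4.30%), 2 of them among the 6 WT-specific regions and none among the 8 IRF8KO-specific ones; genome-wide, the word was held by 18.7% of the WT-specific class and 1.83% of the IRF8KO-specific class. Of the 3 tested regions with the word, the Abca1 region fell, an Rxra region 82.2 kb in was called higher when median-scaled (1.06, limma adjusted p = 0.00349), and an Rxra region 51.7 kb in passed on neither scale. The Rxra region 82.2 kb in did not pass on fold enrichment (0.32, adjusted p = 0.704). AP-1 words were in 10 regions (6.58%, against 5.91%), with 3 among the 8 IRF8KO-specific and none among the 6 WT-specific; the genome-wide shares were 15.2% and 4.25%. Of the 4 tested regions with an AP-1 word, median-scaled limma called 1 lower, in the Pparg intron (-0.89), and 2 higher, at Rxra 11.7 kb in (0.74) and at Abca1 39.3 kb in (0.81). Of all shared regions 12.5% were lower and 13.3% higher on this scale. The remaining region, at Abca1 4.3 kb in, was not called (0.30, adjusted p = 0.276), and none of the 4 was called on the unscaled values or on fold enrichment. An ISRE word occurred in 1 region (0.658%, against 3.13%), at Abcg1 18.3 kb in, next to the region that fell; it was listed in WT replicate 1 only, at 0.575.

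The rest of the pathway was read from 50 further genes of receptor partners, coregulators, lipid transport, cholesterol synthesis, storage and uptake. Their windows held 526 distinct regions, 18 WT-specific (3.42%) and 25 IRF8KO-specific (4.75%), and limma called 18 lower (6.82%) and 13 higher (4.92%) of 264 tested (median-scaled, 29 and 53). These shares, like those of the 8 genes, are descriptions beside those of all regions given above. Of 44 main promoters tested, 2 were lower and 2 higher (median-scaled, 3 and 6), beside the shares over all promoter regions given above. The promoter of Apoc1, which encodes an apolipoprotein and neighbours Apoe, rose from 0.256 and 0.286 to 1.45 and 1.77 (2.56, limma adjusted p = 4.13e-05; median-scaled 2.87). The scavenger receptor gene Msr1 rose from 0.17 and 0.266 to 0.571 and 1.21 (1.96, adjusted p = 0.00463; median-scaled 2.27). The promoter of Pdk4, a PPAR target, was WT-specific at 0.192 and 0.225, and that of Cyp7b1, an oxysterol hydroxylase, IRF8KO-specific at 0.165 and 0.196. The pathway promoters whose profile over the 4 libraries was closest to that of Pparg were Scarb1, Insig1 and Scd2 (Euclidean distances of 0.228, 0.336 and 0.364 between centred log2 profiles, 44 compared); none of the 3 passed the test.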

How the data were processed

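Accessibility was measured by ATAC-seq in 2 WT and 2 IRF8KO libraries. The authors ran MACS2 2.1.1.20160309 on each library, per the file headers, at a p cutoff of 0.01, with cut sites shifted by -37 bp and extended to 73 bp and a local background of 10 kb. Per the submitters' processing notes the build was mm10 (GRCm38), and Bowtie2 and deepTools were used. The deposited pileup is an unscaled signal, the deposited fold enrichment is a ratio to local background, and the deposited p and q are −log10 values. Pileup was divided by the header tag number and its log2 was tested with limma 3.58.1 (R 4.3.3; trend, no pseudocount, no covariate) on the 58550 regions with a deposited peak in all 4 libraries. That selection leaves out regions missing from a library, which were counted by class only. The pileup needed for listing was the smallest that reaches a Poisson p of 0.01 over the local background of the nearest listed summit, itself taken from its pileup and fold enrichment. Overlap meant at least 1 bp. Autosomes and X were used. The procedure was tested on simulated data without library shifts for the same 58550 regions. All regions were given the same spread, taken from the median-scaled values. It called 43 of 100 regions changed by log2 1 and 100 of 100 changed by log2 2, with 9 false calls. These figures do not carry over to the unscaled fit that gave the 5 calls. Its standard errors were larger (0.49 against 0.26 median-scaled at the Abcg1 region that fell). Named were each gene's main promoter (highest mean pileup within 1 kb of a start site), genotype-specific and called regions, and highest region, and pathway genes with a genotype-specific or called promoter, of which some are not reported here. The members, lists and rules were chosen with earlier results of these data known. The alternatives tried were other peak thresholds, windows, scalings, filters and a pseudocount, the replicate number as a block, and each library left out.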

Additional observations from a re-analysis of the deposited data

How the results depend on the processing

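The difference in strict peaks over the 8 genes changed sign at a −log10 q of 5 or more (-1.5), with all deposited peaks (-2.0) and with 50 kb on each side (-2.0), and ran from -2.0 to 5.0 when each library was left out. With a pileup minimum of 0.5, the WT-specific class held 2 regions and the IRF8KO-specific class 5; leaving out each library gave 7 to 17 and 9 to 19, while the shares of all regions ran from 7.03% to 17.9% and from 5.69% to 15%. Shared regions called lower by limma numbered 6 when median-scaled, 1 with the replicate number as a block and 0 to 12 with each library left out (12.5%, 1.49% and 0.229% to 21.2% of all shared regions). Those called higher numbered 15 when median-scaled, 0 on fold enrichment, 0 with the replicate block and 0 to 5 with each library left out (13.3%, 2.43%, 0.564% and 0.164% to 6.36%). Counts of 0 in both directions came with either WT library left out. The genome-wide shares moved with these counts, and the cause was not tested. The labels do not say that the replicate numbers pair samples. Deviations of same-numbered libraries from their group means correlated at 0.00438 across 58550 regions. Such a correlation cannot see a shift common to all regions, so it does not decide whether same-numbered libraries were prepared together. The Abca1 region that fell had an adjusted p of 0.0499 with the block and the Abcg1 region 0.0501. The Nr1h2 promoter passed only without IRF8KO replicate 2 (-1.01, adjusted p = 0.0319). The median log2 difference of the shared regions ran from -0.52 to -0.03 with each library left out. Over the 169 values of single regions and main promoters under all alternatives, 135 kept sign and call, 14 that were not called changed sign, 19 lost the call and 1 gained it. Depth differs with genotype, and its part in the genotype-specific classes was not tested. The expected heights given above were taken without median scaling from the genotype that listed each region, so they cannot decide this.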
